A study of Mus musculus with 18 samples.

Results

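This report concerns wild-type (WT) fibroblasts after 120 min of hydrogen peroxide, set against the same line untreated, across 4328 genes of the 10110 named in the deposited tables. These are the genes with a single, unrepeated symbol that are listed in both the 0 min and the 120 min table. They make up 57.3% of the 7549 such genes of the 0 min table and 70.9% of the 6105 of the 120 min table. The cells were an immortalized mouse embryonic fibroblast line, grown in serum-containing medium and left untreated or given 500 µM hydrogen peroxide for 15 or 120 min. A second line carried the eIF2α S51A form and was sampled at the same times. The labels hold 18 samples, 3 per genotype and time in 6 groups, whereas the design text of the series gives duplicates. Polyadenylated RNA was sequenced.

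The tables give 1 FPKM value per group (fragments per kilobase of transcript, scaled for the number mapped), as combined by the authors. The spread between samples and the sequencing depth are therefore unknown, no standard deviation can be given, and no difference between the times was tested. The 0 and 120 min values come from separate tables, and each table lists only genes that the authors called different between WT and S51A at that time. A gene absent from a table may still be expressed. WT is 1 line, and nothing in the labels says whether its samples were separate cultures.

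Of 12 fibroblast markers, 10 were listed at 0 min, with WT levels of 1872 FPKM for the intermediate filament gene Vim, 241 FPKM for the collagen gene Col1a1 and 0.599 FPKM for Postn. Of 6 leukocyte markers 3 were listed, with Cd14 at 15.1 FPKM, Lyz2 at 2.11 FPKM and Cd68 at 1.97 FPKM. None of 5 endothelial or 5 skeletal muscle markers was listed, and 1 of 6 epithelial markers was (Krt19, 6.06 FPKM), but a marker not listed may still be expressed in both lines. In such bulk RNA, fewer cells of a kind and less RNA per cell cannot be told apart.

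Peroxide oxidizes thiols and damages DNA and proteins, and cells answer on several levels. Kinases phosphorylate eIF2α, which slows translation initiation while favouring translation of the transcription factor ATF4, whose targets form the integrated stress response. Other arms run through HSF1 (chaperones), NRF2 (glutathione and thioredoxin genes), p53 and the MAP kinases, which drive immediate early genes within minutes. Many signalling inhibitors and transcription factors have short-lived mRNAs, whose levels follow transcription closely.

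In WT cells few of the shared genes differed in level after 120 min. The change of a gene is given here as log2 of (FPKM + 1) at 120 min over (FPKM + 1) at 0 min, minus the median over the 4328 genes, which was -0.098 before centring. On this centred log2 scale 27 genes were at least 2-fold higher (0.624% of the shared genes) and 71 at least 2-fold lower (1.64%), 98 in all (2.26%). Of these, 17 higher and 67 lower genes reached 5 FPKM at either time. The shares over all shared genes are the background for the counts of list members given below. The central 95% of changes ran from -0.82 to 0.54. Just inside and outside the 2-fold line lay changes of 1.0001 and 0.99 on the higher side, and -1.001 and -0.993 on the lower. Adding 0.1 or 5 FPKM in place of 1 gave 77 higher and 119 lower, or 11 higher and 27 lower.

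**Figure D1:**
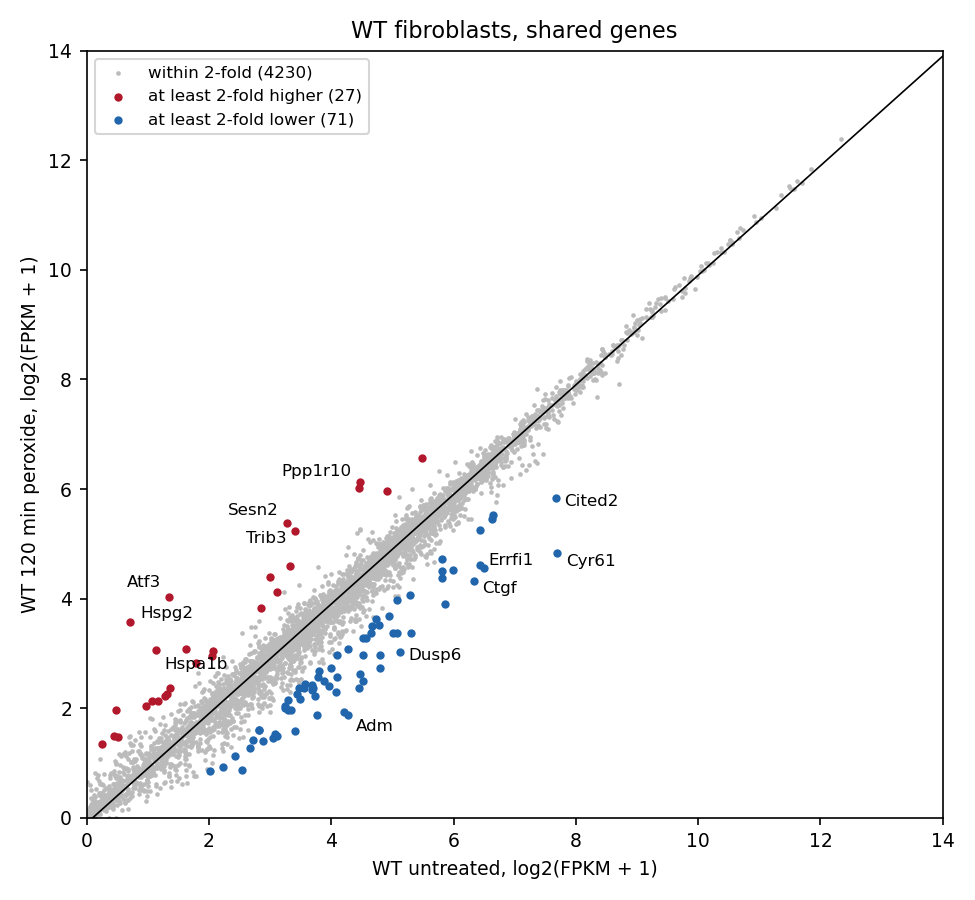
WT FPKM at 120 min (y) against WT FPKM untreated (x), both as log2(FPKM + 1), 1 point per shared gene. The line marks the median change, 27 genes lie at least 2-fold above it and 71 at least 2-fold below, the farthest below being Cyr61.

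The 15 min table gives a point in between for 3826 of the shared genes. After 15 min 2 genes were at least 2-fold lower in WT (0.0523%) and 0 higher, and the central 95% of changes ran from -0.40 to 0.37. Both genes, the fatty acid carrier Fabp4 and the lipoprotein lipase Lpl, are named after their values were seen. Fabp4 was at 30.3 FPKM untreated, 9.06 FPKM at 15 min and 30.9 FPKM at 120 min. Of the 27 genes higher at 120 min, 25 were listed at 15 min, with changes of -0.56 to 0.70 by then. Of the 71 lower genes, 69 were listed, with changes of -0.31 to 0.38. Thus none of the 94 genes listed at all times had passed 2-fold by 15 min. Against the 15 min values as the base, 17 of the 25 higher and 61 of the 69 lower genes were at least 2-fold changed. The 120 min values, by which these genes were chosen, are the same in both comparisons, so this is not an independent repeat. On that base 22 of the 3826 genes were higher (0.575%) and 80 lower (2.09%), 2.67% in all. A further 1136 genes were listed at 15 and 120 min but not at 0 min, of which 8 were higher (0.704%) and 10 lower (0.88%) against 15 min, 1.58% in all.

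**Figure D2:**
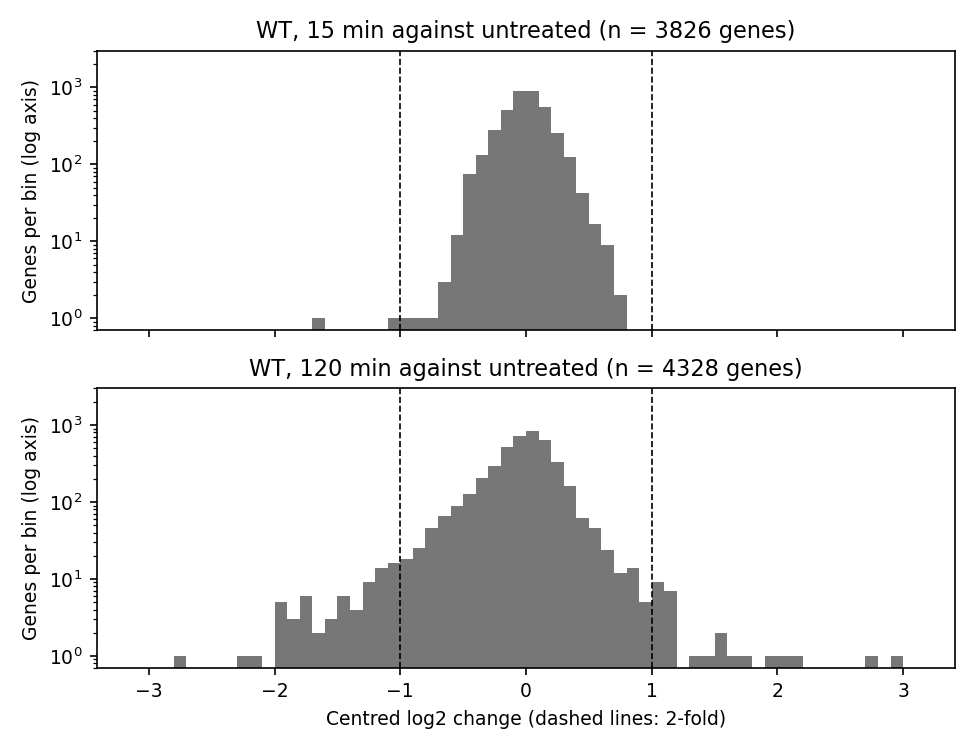
Number of genes (log axis) by centred log2 change in WT at 15 min (top, 3826 genes) and 120 min (bottom, 4328 genes) against untreated. The central 95% widened from 0.766 to 1.36 log2 units, and at 120 min more genes lay past 2-fold on the lower side (71) than on the higher (27).

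Effectors of the integrated stress response were among the highest changes. Atf3, a stress-induced transcription factor (chromosome 1, 191170296 to 191218039, minus strand), was at 1.55 FPKM untreated, 2.13 FPKM at 15 min and 15.3 FPKM at 120 min, a centred log2 change of 2.78. Sesn2, an inhibitor of mTORC1 signalling (chromosome 4, 132492032 to 132510501), was at 8.69 FPKM, 9.51 FPKM and 40.5 FPKM at these times, a change of 2.20. For both genes the 15 min level lay close to the untreated one. Trib3, a pseudokinase that restrains ATF4 signalling (chromosome 2, 152337422 to 152344032, minus strand), was at 9.65 FPKM, 9.06 FPKM and 36.8 FPKM, a change of 1.92. Slc7a11, the cystine carrier that feeds glutathione synthesis and is also an NRF2 target, was at 0.966 FPKM, 1.17 FPKM and 3.14 FPKM, a change of 1.17, or 0.52 when 5 FPKM was added in place of 1. These are 4 of the 27 list members in both tables, out of 53 in the list, while 0.624% of all shared genes were at least 2-fold higher. None of the 27 list members was at least 2-fold lower, 23 lay above the median of shared genes, and the list median was 0.22.

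Other members of that response stayed within 2-fold. The glutathione-degrading enzyme gene Chac1 was at 16.8 FPKM untreated, 19.4 FPKM at 15 min and 17.6 FPKM at 120 min. Asns, for asparagine synthetase, was at 111 FPKM untreated and 118 FPKM at 120 min. Cebpg, a partner of ATF4, was outside the naming rule and is given here after its values were seen, at 12.8 FPKM and 22.9 FPKM, a change of 0.89. Eif2s1, which encodes eIF2α, was at 91.8 FPKM untreated and 97.7 FPKM at 120 min, and Eef2k, the kinase of elongation factor eEF2, at 4.14 FPKM and 3.71 FPKM. Of the 15 shared aminoacyl-tRNA synthetase genes, which charge tRNAs and include ATF4 targets, 0 passed 2-fold, although 12 lay above the median. Their median was 0.059 and the highest was Nars, for the asparaginyl enzyme, at 214 FPKM and 250.7 FPKM. Atf4, at 313 FPKM untreated and 311 FPKM at 15 min, and the NRF2 target Hmox1, at 234 FPKM at both of those times, were not listed at 120 min, and Ddit3 was listed in no table. Their changes at 120 min were therefore not analysed here.

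Promoter stretches of Atf3, Slc7a11 and Trib3 are shown because they hold the letters of the composite element on which ATF4 pairs with C/EBP proteins. The element was searched as TGATGNAA on both strands in RefSeq windows (GRCm38.p6, the assembly behind mm10) from 250 bases before to 50 after each start site. The letters were found in 4 of 28 windows of the higher genes (14.3%), which belong to 23 of the 27 genes, in 1 of 70 windows of the lower genes (1.43%), in 2.57% of the 4509 windows of shared genes and in 3.97% of all 32851 windows. Most other motifs searched also had shares above that of shared genes, in both the higher and the lower windows. Among these were the cAMP response element (TGACGNCA, 10.7% of higher, 8.57% of lower and 5.46% of shared windows), the antioxidant response element (TGACNNNGC, 21.4%, 17.1% and 14%) and AP-1 (TGANTCA, 7.14%, 5.71% and 5.5%). The TATA box (TATAAA, 10.7%, 11.4% and 8.01%) and NF-kB (GGGNNNTCC, 25%, 25.7% and 22.6%) had such shares too, while the E-box (CACGTG) had 7.14%, 11.4% and 10.3%. The same motifs were in 3.21%, 12.4%, 7.81%, 13.6%, 17.8% and 7.15% of all windows, in this order. The 4 windows of higher genes with TGATGNAA belong to Atf3, Slc7a11, Trib3 and Ppp1r10. Ppp1r10 is not in the integrated stress response list, and its window is not printed. The window of Sesn2, which is in that list, held no such match. A match of letters is a description and not a binding site. Capitals mark the matched letters, 5′ to 3′ on the gene's strand. Atf3 and Slc7a11 are shown over the 250 bases before the start (chr1:191183334-191183583 and chr3:50443614-50443863, both minus strand), and Trib3 over the first 30 bases from it (chr2:152344031-152344060, minus strand).
Atf3: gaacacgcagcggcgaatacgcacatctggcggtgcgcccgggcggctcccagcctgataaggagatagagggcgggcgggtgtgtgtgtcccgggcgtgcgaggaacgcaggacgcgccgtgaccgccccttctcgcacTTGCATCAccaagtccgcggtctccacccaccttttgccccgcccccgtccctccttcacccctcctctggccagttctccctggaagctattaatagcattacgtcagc
Slc7a11: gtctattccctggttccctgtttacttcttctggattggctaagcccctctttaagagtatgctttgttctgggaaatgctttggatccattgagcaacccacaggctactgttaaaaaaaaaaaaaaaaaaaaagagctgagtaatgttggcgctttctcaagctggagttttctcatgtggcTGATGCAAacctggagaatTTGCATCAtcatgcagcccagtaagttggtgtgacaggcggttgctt
Trib3: agattagctcaggtTTACATCAgccgggcg
The match in Atf3 began 110 bases before the start site, those in Slc7a11 66 and 47 bases before it, on opposite strands, and that in Trib3 at base 15 counted from it. No match overlapped another motif searched in these stretches.

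Hspa1b, the inducible HSP70 chaperone gene, was at 1.20 FPKM untreated, 2.13 FPKM at 15 min and 7.31 FPKM at 120 min, a centred log2 change of 2.02. It shares reads with its near-identical copy Hspa1a, so its own level is uncertain. The entry of Hspa1a had a change of 0.40, within 2-fold. Hspa1b was the only one of 18 shared members of the heat shock list (of 40) past 2-fold, beside 2.26% of all shared genes. Of the 18, 16 lay above the median, and the list median was 0.18. The small chaperone gene Hspb1 was next, at 13.8 FPKM and 20.3 FPKM, a change of 0.62. Zfand2a, an arsenite-inducible proteasome-associated protein, was at 29.0 FPKM, 28.8 FPKM and 61.4 FPKM, a change of 1.15. Of 12 shared genes for chaperones and the unfolded protein response of the endoplasmic reticulum, 1 passed 2-fold. This was Crebrf, a regulator of CREB3, at 2.45 FPKM untreated and 6.11 FPKM at 120 min. Their co-chaperone gene Dnajb9 was at 6.06 FPKM and 11.004 FPKM, and Xbp1, for the transcription factor of this response, was at 16.9 FPKM and 12.6 FPKM.

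Immediate early transcription factor genes went in both directions. Nr4a1, an orphan nuclear receptor, was at 9.0005 FPKM untreated, 9.19 FPKM at 15 min and 23.1 FPKM at 120 min, a change of 1.37. Csrnp1, a nuclear protein, was at 7.67 FPKM, 8.82 FPKM and 16.3 FPKM, a change of 1.10. Fos, a subunit of AP-1, was at 1.48 FPKM, 3.03 FPKM and 3.81 FPKM. Most of its difference was thus present by 15 min, with a change of 1.05 from 0 to 120 min and 0.37 from 15 to 120 min. On the lower side Klf6, a zinc finger factor, was at 55.3 FPKM untreated and 25.3 FPKM at 120 min, a change of -1.002. Of 27 shared members (of 47), these 3 were at least 2-fold higher and this 1 lower, and the list median was 0.019. Egr1, a growth-factor-responsive gene, was at 23.3 FPKM and 32.9 FPKM. Jun, the AP-1 partner of Fos, was at 52.0 FPKM and 54.6 FPKM, and Myc, a growth regulator, at 96.3 FPKM and 60.5 FPKM. None of these last 3 passed 2-fold.

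Hspg2, for the basement membrane proteoglycan perlecan (chromosome 4, 137468769 to 137570630), had the highest change of all, from 0.642 FPKM untreated and 0.570 FPKM at 15 min to 10.9 FPKM at 120 min, a change of 2.96. It was the only one of 42 shared matrix and basement membrane genes past 2-fold, near the 2.26% of all shared genes. The list median was 0.041. Ppp1r10, a nuclear regulator of protein phosphatase 1, was at 21.1 FPKM, 24.4 FPKM and 69.1 FPKM, a change of 1.76. Ndrg1, a stress- and hypoxia-inducible gene, was at 20.8 FPKM, 18.001 FPKM and 63.6 FPKM, a change of 1.66. Snhg12, a host gene of small nucleolar RNAs, was at 43.7 FPKM, 50.9 FPKM and 93.7 FPKM, a change of 1.18. Chd2, a chromatin remodeller, was at 6.23 FPKM, 7.52 FPKM and 13.3 FPKM, a change of 1.08. The lipoprotein receptor gene Apobr was at 2.08 FPKM untreated and 7.52 FPKM at 120 min, and the locus listed as LOC100504703 at 7.01 FPKM and 19.97 FPKM. Outside the 15 highest with at least 5 FPKM, Atg14, for a subunit of the autophagy lipid kinase, was at 3.20 FPKM, 3.51 FPKM and 7.21 FPKM, a change of 1.06. It was the only one of 20 lysosome and autophagy genes past 2-fold, beside 2.26% of all shared genes, while 17 of them lay above the median. Without centring, Fos, Csrnp1, Chd2 and Atg14 lay just within 2-fold.

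**Figure D3:**
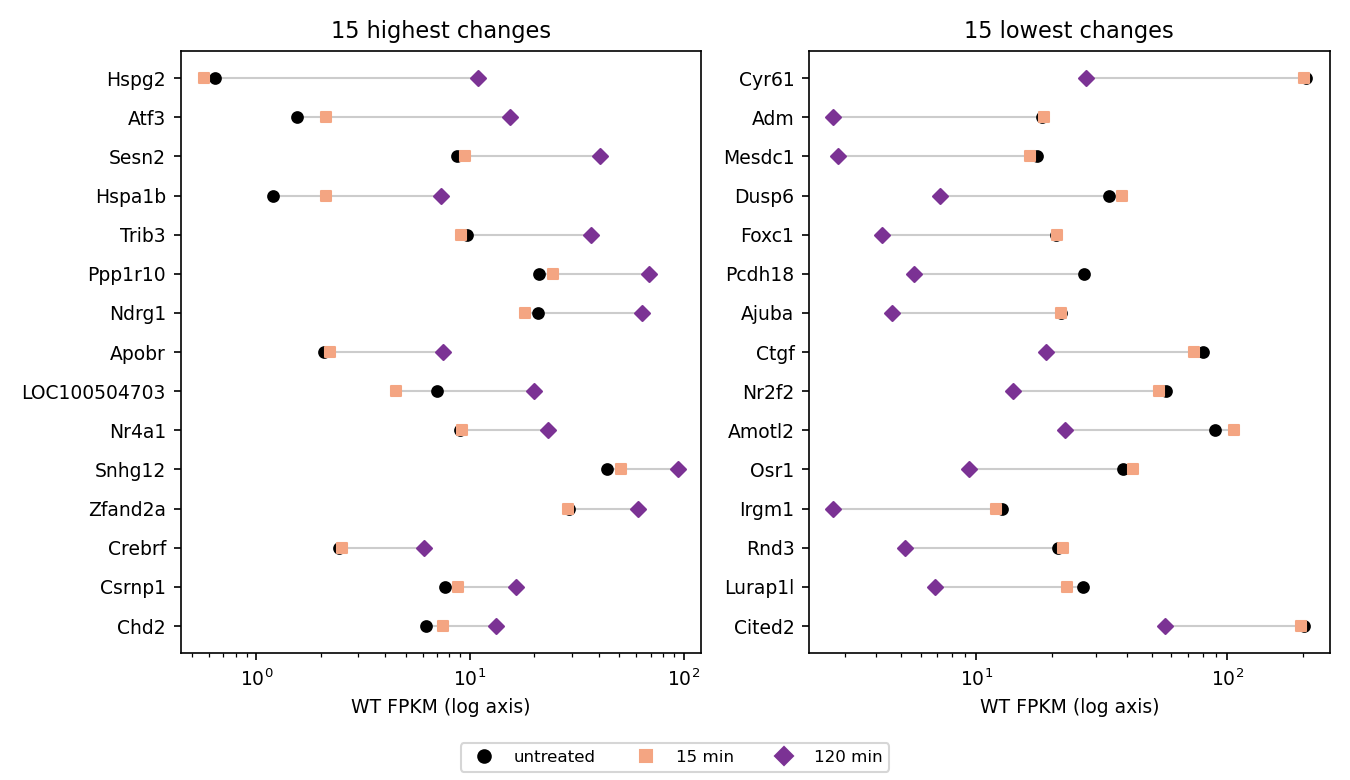
WT FPKM (log axis) untreated, at 15 min and at 120 min for the 15 highest (left) and 15 lowest (right) centred log2 changes among genes with at least 5 FPKM at either time. Each symbol is the authors' single group value, and Pcdh18 was not listed at 15 min. For Cyr61 the 15 min level, 202 FPKM, lies by the untreated 207 FPKM, and the 120 min level is 27.5 FPKM.

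The lowest change belonged to Cyr61, a secreted matricellular protein and a standard target of YAP and SRF (chromosome 3, 145646976 to 145649981, minus strand). It was at 207 FPKM untreated, 202 FPKM at 15 min and 27.5 FPKM at 120 min, a centred log2 change of -2.77 and a 7.52-fold difference in FPKM. Its relative Ctgf, also secreted, was at 79.9 FPKM, 74.0 FPKM and 19.0 FPKM, a change of -1.92. Both were close to their untreated level at 15 min. Ajuba, a LIM-domain regulator of the Hippo pathway, was at 21.9 FPKM, 21.7 FPKM and 4.63 FPKM, a change of -1.92. Amotl2, a scaffold that holds YAP at junctions, was at 89.9 FPKM, 107 FPKM and 22.6 FPKM, a change of -1.85. F3, for tissue factor, was at 11.96 FPKM untreated and 4.14 FPKM at 120 min, and is named after its values were seen. With it, 5 of 18 shared members of the YAP and SRF list (of 33) were at least 2-fold lower and 0 higher. Over all shared genes 1.64% were at least 2-fold lower and 0.624% higher. The other 13 list members lay closer to the median, so that the list median was -0.073.

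The list of MAP kinase phosphatases and feedback genes had the lowest median, -0.42, with 14 of 17 shared members (of 25) below the median of shared genes. It holds feedback inhibitors but also growth factor and cytokine genes such as Ereg (-0.71), Hbegf (-0.57) and Lif (-0.21). Dusp6, the cytoplasmic ERK phosphatase (chromosome 10, 99263231 to 99267489), was at 33.8 FPKM untreated, 38.1 FPKM at 15 min and 7.16 FPKM at 120 min, a change of -1.995. Dusp5, a nuclear ERK phosphatase, was at 31.3 FPKM, 34.8 FPKM and 9.38 FPKM, a change of -1.54. Both were slightly above their untreated level at 15 min. Errfi1, an inhibitor of the EGF receptor, was at 85.0 FPKM, 93.7 FPKM and 23.4 FPKM, a change of -1.72. Phlda1, a growth-factor-inducible gene, was at 62.2 FPKM, 60.5 FPKM and 21.9 FPKM, a change of -1.37. Dusp7 was the fifth member at least 2-fold lower, at 24.3 FPKM and 10.3 FPKM, and 0 were higher. Over all shared genes 1.64% were at least 2-fold lower and 0.624% higher.

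The promoter of Dusp5 is shown because it holds a pair of CArG boxes, the element bound by SRF, side by side (chr19:53528895-53529144, plus strand, the 250 bases before the start site, boxes in capitals).
Dusp5: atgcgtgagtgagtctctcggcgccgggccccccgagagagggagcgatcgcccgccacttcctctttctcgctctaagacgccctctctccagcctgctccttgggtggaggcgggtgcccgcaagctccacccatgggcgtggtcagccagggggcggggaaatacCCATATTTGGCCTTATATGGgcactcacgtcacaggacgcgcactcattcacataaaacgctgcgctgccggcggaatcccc
The boxes began 82 and 72 bases before the start site. A CArG box was found in 3 of 70 windows of the lower genes (4.29%), in 0 of 28 of the higher genes, and in 1.53% of windows of shared genes. The windows of Cyr61, Ajuba, Amotl2 and F3, the lower genes of the YAP and SRF list that had one, held no CArG box. Ctgf had no window to search.

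Among the 15 lowest changes with at least 5 FPKM were also those of Foxc1, Nr2f2, Osr1 and Cited2. Foxc1, a forkhead factor, was at 20.8 FPKM untreated, 20.97 FPKM at 15 min and 4.20 FPKM at 120 min, a change of -1.97. Nr2f2, an orphan nuclear receptor, was at 57.3 FPKM, 53.4 FPKM and 14.03 FPKM, a change of -1.86. Osr1, an odd-skipped zinc finger factor, was at 38.6 FPKM, 42.2 FPKM and 9.32 FPKM, a change of -1.84. Cited2, a CBP and p300 binding cofactor, was at 202 FPKM, 197 FPKM and 56.5 FPKM, a change of -1.72. All 4 were close to their untreated level at 15 min.

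Adm, for the secreted vasodilator peptide adrenomedullin, was at 18.3 FPKM, 18.6 FPKM and 2.69 FPKM, a change of -2.28. It is a hypoxia target, as is Ndrg1, which was higher. Of 21 shared glycolysis and hypoxia genes these were the 2 past 2-fold, in opposite directions. Pcdh18, a protocadherin, was at 26.9 FPKM untreated and 5.66 FPKM at 120 min, a change of -1.97. Irgm1, an interferon-inducible GTPase, was at 12.6 FPKM and 2.68 FPKM, a change of -1.79. It was the only one of 44 shared interferon-stimulated genes past 2-fold, near the 2.26% of all shared genes, and their median was 0.037. Mesdc1 was at 17.5 FPKM and 2.81 FPKM, and Lurap1l at 26.7 FPKM and 6.82 FPKM.

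Of 27 shared NF-kB and cytokine genes, 1 was at least 2-fold lower and 0 higher, with 19 below the median and a list median of -0.10. This was Nfkbiz, an atypical IkB protein, at 6.36 FPKM untreated and 1.66 FPKM at 120 min. The chemokine gene Ccl2 was at 419 FPKM, 331 FPKM and 242 FPKM at 0, 15 and 120 min, and Csf1, a macrophage growth factor, at 163 FPKM, 181 FPKM and 88.0 FPKM. In the other direction Nfkbia, the feedback inhibitor IkBα, was at 39.1 FPKM untreated and 62.7 FPKM at 120 min. Il6, for an interleukin, was at 1.49 FPKM and 1.79 FPKM, and the chemokine gene Cxcl1 at 36.0 FPKM and 28.8 FPKM.

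In the S phase and mitosis lists together 3 genes passed 2-fold, all lower. Over all shared genes 1.64% were at least 2-fold lower and 0.624% higher, so that 71 of the 98 past 2-fold were lower. Ccne2, a cyclin of the G1 to S transition, was at 55.3 FPKM untreated, 50.2 FPKM at 15 min and 19.7 FPKM at 120 min, a change of -1.35. E2f7, a repressor of the E2F family, was at 10.1 FPKM, 10.9 FPKM and 4.17 FPKM, a change of -1.01. These were the 2 of 18 shared S phase genes past 2-fold. Kif18a, a mitotic kinesin, was the 1 of 26 shared mitosis genes, at 22.6 FPKM, 21.9 FPKM and 8.75 FPKM, and 20 of the 26 lay below the median of shared genes. Of 18 TGF-beta, BMP and Notch response genes 0 passed 2-fold but 14 lay below the median, with Bmp4, a secreted ligand, at 4.89 FPKM and 1.77 FPKM, a change of -0.99. Among 23 shared p53 targets, Sesn2 was at least 2-fold higher and Sertad1, a CDK4-binding protein, at least 2-fold lower, at 32.9 FPKM and 14.8 FPKM. Klf6, E2f7 and Sertad1 lay just past the line, and were just within it when the change was centred on genes of at least 5 FPKM. The proapoptotic gene Pmaip1 was at 0.607 FPKM and 1.79 FPKM, and Gadd45g, a growth arrest gene, at 50.2 FPKM and 24.4 FPKM, both within 2-fold on this scale. The p53 target Cdkn1a was not listed at 120 min.

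Of 20 shared NRF2 targets 1 passed 2-fold (Slc7a11), with 2.26% of all shared genes past it in either direction, and the list median was 0.15, with 15 above the median of shared genes. The glutathione transferase gene Gsta4 was at 36.3 FPKM untreated and 44.9 FPKM at 120 min, and Mafg, a small Maf partner of NRF2, at 43.1 FPKM and 54.9 FPKM. Of 12 shared antioxidant enzymes and regulators, which include Prdx6 and Txn1 of the NRF2 list, 0 passed 2-fold. Txnip, the inhibitor of thioredoxin, was at 3.89 FPKM, 4.41 FPKM and 1.54 FPKM, a change of -0.85, and the glutathione peroxidase gene Gpx8 at 111 FPKM, 92.4 FPKM and 66.3 FPKM.

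Large housekeeping families kept within narrow ranges. Medians this close to 0 take their sign from the centring, and without it those of 12 of the 33 lists, all within 0.088 of 0, had the other sign. Changes of 49 cytosolic ribosomal protein genes ran from -0.13 to 0.41, and of 38 oxidative phosphorylation subunit genes from -0.23 to 0.18. Those of 13 proteasome subunit genes ran from -0.23 to 0.13, of 34 mitochondrial ribosomal protein genes from -0.56 to 0.25, and of 28 translation factor genes from -0.52 to 0.29. Of 71 shared zinc finger genes named Zfp, not a housekeeping family, 0 passed 2-fold, with a wider range of -0.98 (Zfp503) to 0.92 (Zfp507). Over all shared genes 2.26% passed 2-fold, so few or 0 members past it is near the background. The cholesterol synthesis, DNA repair, metalloproteinase, histone and SR protein lists also had 0 members past 2-fold, and of 9 circadian clock genes 1 was lower, Bhlhe41, a repressor of the clock, at 5.58 FPKM and 1.69 FPKM.

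**Figure D4:**
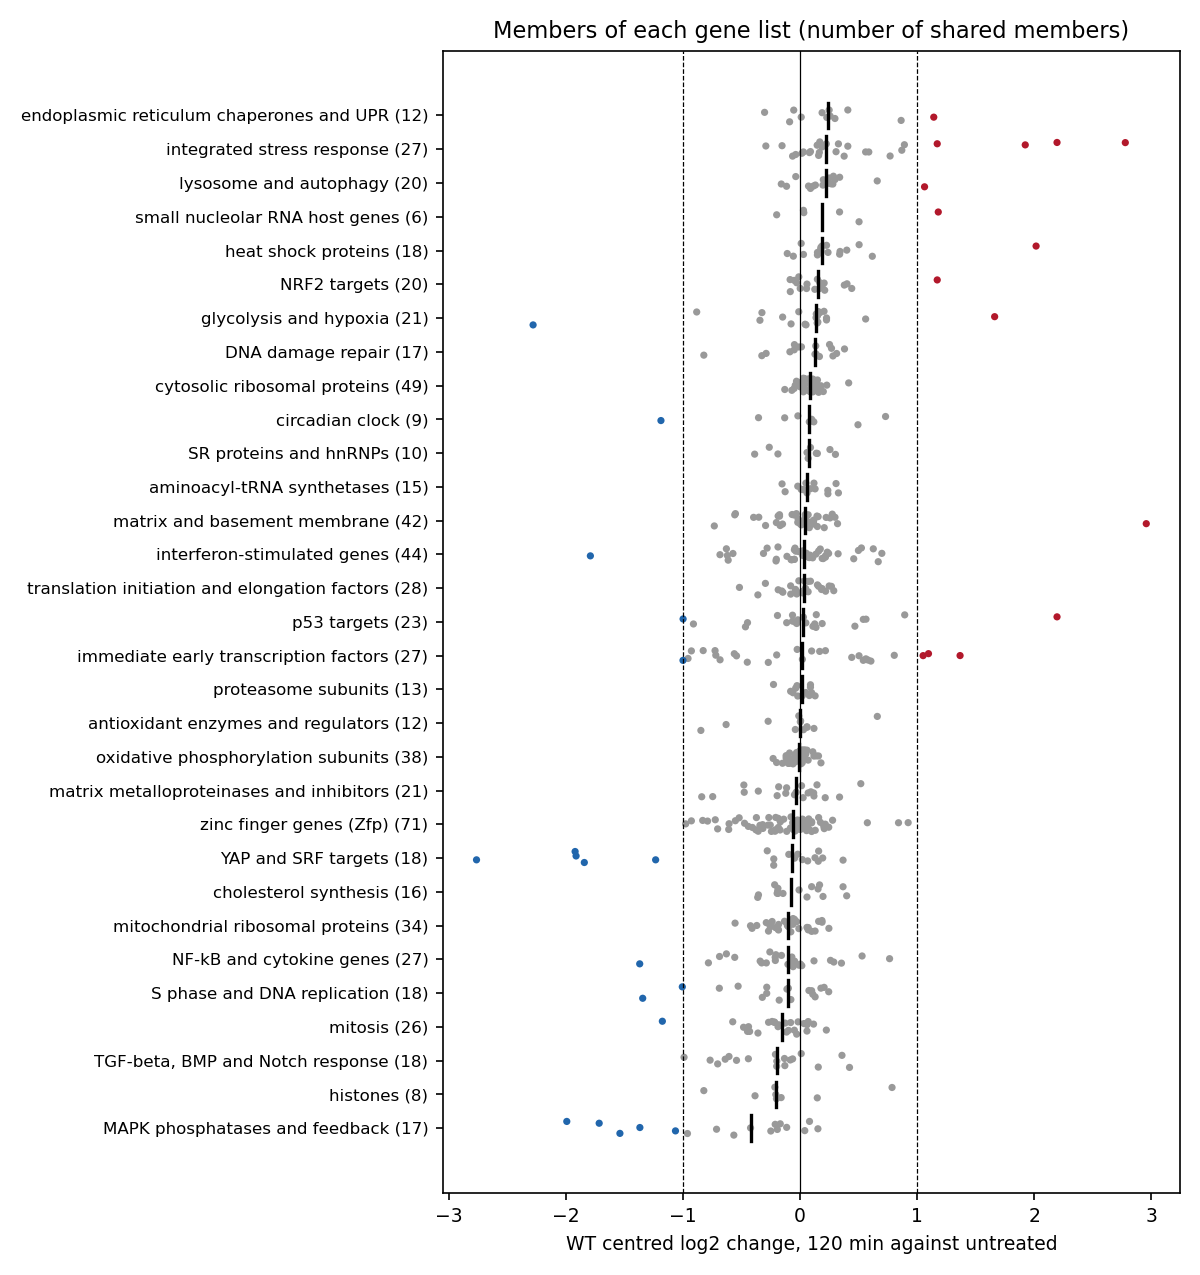
Centred log2 change in WT (x) of each shared member (points) of each gene list (rows, number of shared members in brackets), with the list median as a black bar and dashed lines at 2-fold. The MAPK feedback list has the lowest median, -0.42, with 5 members past the lower line, and the integrated stress response list has 4 past the upper line.

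The lower genes, and to a lesser degree the higher ones, had fewer exons at the median than all shared genes. Of the 71 lower genes, all matched to GENCODE M21 (GRCm38), 22 had 1 or 2 exons in their longest basic transcript (31.0%), against 6.58% of 4315 shared genes matched and 3 of 25 higher genes (12%). The median exon number was 3 for the lower, 7 for the higher and 9 for all shared genes. The share of genes at least 2-fold lower was 7.75% of 284 genes with up to 2 exons, 3.34% of 899 with 3 to 5, 0.81% of 1235 with 6 to 10, 0.702% of 1282 with 11 to 20, and 0 of 615 with more. Cyr61 (5 exons), Dusp6 (3), Foxc1 (1) and Cited2 (1) are examples of the lower genes. Genes at least 2-fold higher numbered 3, 8, 7, 5 and 2 in the same classes, from fewest to most exons. Given the class sizes, their share also fell with exon number, so few exons did not mark the lower genes alone. The median length of the longest basic transcript was alike, at 3149 nt for the lower and 3220 nt for all shared genes. At least 3 copies of ATTTA, the core of AU-rich elements, were found in the 3′ UTR of 44.1% of 68 lower genes, 30.4% of 23 higher genes and 41.2% of 4118 shared genes with at least 100 nt there, so the lower genes were near the background. These are descriptions of genes chosen by their change, and were not tested.

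The S51A line gives the same contrast without a phosphorylatable serine at position 51 of eIF2α, from other samples in the same tables. Of the 4328 genes 497 were at least 2-fold higher (11.5%) and 269 at least 2-fold lower (6.22%) there, on the same centred scale, against 0.624% and 1.64% in WT. Of the 27 genes higher in WT, 12 were at least 2-fold higher in S51A, 15 lay within 2-fold and 0 were lower. Of the 71 lower in WT, 31 were at least 2-fold lower in S51A, 39 lay within 2-fold and 1 was higher. When both lines were centred on 7 housekeeping genes, the genes higher in both numbered 6 and those lower in both 54. The difference between the lines was not tested.

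Members differed in how the lines compared. Sesn2 was at 4.38 FPKM untreated and 2.77 FPKM at 120 min in S51A (change -0.33, against 2.20 in WT), and Trib3 at 3.03 FPKM and 3.36 FPKM (0.29 against 1.92). Slc7a11 was at 0.212 FPKM and 0.232 FPKM in S51A (0.20 against 1.17). Atf3, in contrast, was at 3.18 FPKM and 44.6 FPKM in S51A, a change of 3.63 against 2.78 in WT, and Hspa1b at 12.3 FPKM and 165 FPKM (3.82 against 2.02). Of the stress effectors, then, Atf3 was higher in both lines and the other 3 in WT alone by the 2-fold measure. Chac1, level in WT, was at 4.41 FPKM and 0.503 FPKM in S51A.

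Among the lower genes, Cyr61 was at 263 FPKM untreated and 338 FPKM at 120 min in S51A (change 0.54, against -2.77 in WT), and Ctgf at 58.9 FPKM and 62.7 FPKM (0.27 against -1.92). Dusp6 was at 9.45 FPKM and 12.04 FPKM (0.50 against -1.995), and Errfi1 at 26.4 FPKM and 41.4 FPKM (0.81 against -1.72). Phlda1 was the 1 gene past 2-fold in opposite directions, at 20.5 FPKM and 58.5 FPKM in S51A (1.64 against -1.37). Dusp5 and Dusp7, from the same list as Dusp6, Errfi1 and Phlda1, were instead lower in both lines. Dusp5 was at 10.1 FPKM and 2.81 FPKM in S51A (-1.36 against -1.54), and Dusp7 at 13.7 FPKM and 3.48 FPKM (-1.54 against -1.07). Foxc1, Osr1, Amotl2 and Ajuba were also lower in both lines. Foxc1 was at 54.6 FPKM and 8.11 FPKM in S51A (-2.43 against -1.97), Osr1 at 15.1 FPKM and 1.52 FPKM (-2.50 against -1.84), Amotl2 at 122 FPKM and 32.9 FPKM (-1.68 against -1.85) and Ajuba at 33.6 FPKM and 8.52 FPKM (-1.68 against -1.92). The YAP and SRF list and the MAPK feedback list thus each held members of both kinds. Ribosomal protein genes, narrow in WT, had a median of 1.78 in S51A against 0.088 in WT, and oxidative phosphorylation genes 1.54 against -0.013. Hspg2 was at 44.6 FPKM and 20.7 FPKM in S51A, so its 120 min level in WT, 10.9 FPKM, was still below that of S51A.

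**Figure D5:**
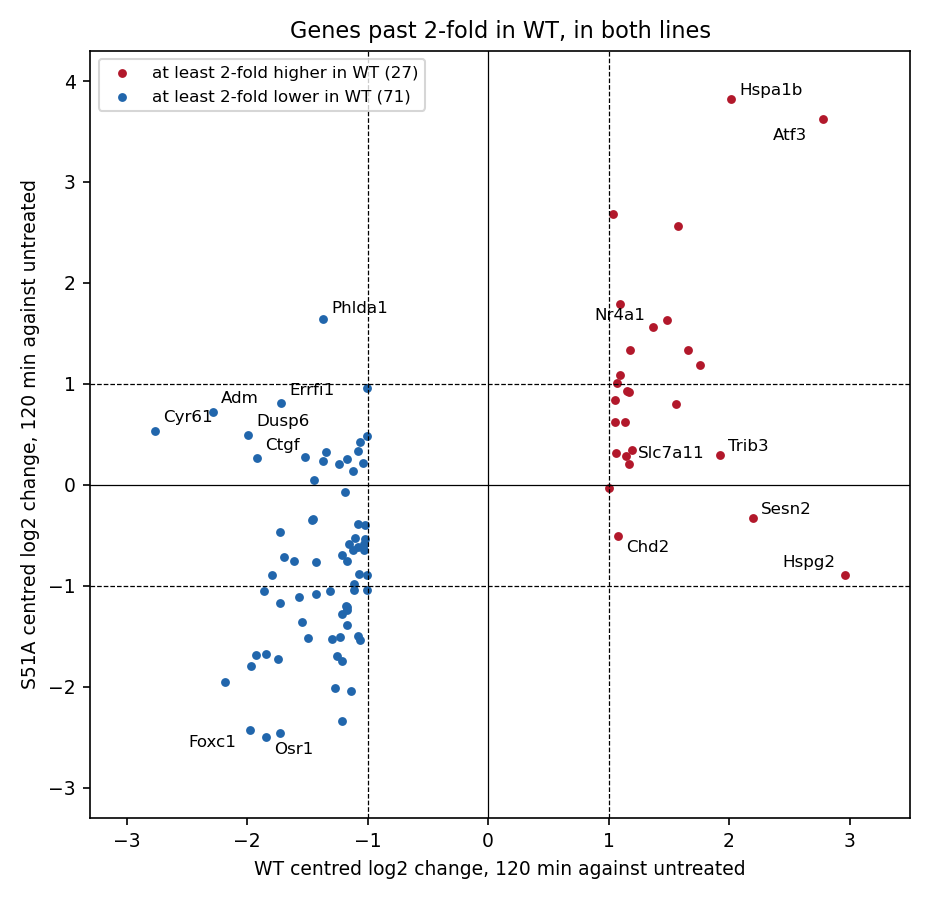
Centred log2 change at 120 min in S51A (y) against WT (x) for the 98 genes at least 2-fold changed in WT (27 higher, 71 lower), with dashed lines at 2-fold. Sesn2 and Trib3 lie near 0 on the S51A axis while Atf3 and Hspa1b are high on both, and Phlda1 is the only point past 2-fold in opposite directions.

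In WT 30 shared genes were listed at 0 at both times, 7 at 0 min only and 4 at 120 min only. The highest were Pcp4l1 (0.566 FPKM at 120 min), Vmn1r40 (0.390 FPKM untreated), Hopx (0.287 FPKM untreated) and Dkk3 (0.102 FPKM at 120 min), and no fold is given for them.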

How the data were processed

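Polyadenylated RNA of 18 samples in 6 groups was read on an Illumina NextSeq 500, per the labels' protocols. STAR, Cufflinks, Cuffdiff and the mm10 build are named in the submitters' processing notes, with no version or role. Per the file headers, the authors deposited log2 FPKM of each group, a log2 ratio and a q-value (p-value adjusted by the authors) for each gene. The authors' q-value and ratio were not used here beyond the fact that every entry is marked significant. A deposited log2 FPKM of -10 was read as 0. Entries with 2 symbols or date-like symbols (6, 3 and 8, and 0, 11 and 11, at 0, 120 and 15 min) were left out.

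Changes were computed with Python 3.11.15 and pandas 2.3.3 on FPKM plus 1, centred on the median of shared genes. No source used here says whether the tables share a normalization, so each change is a description. A pseudocount understates changes of low genes. With no counts or values per sample, no test, interval or depth could be had, and "changed" means at least 2-fold.

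The members, the lists and the motifs were chosen with earlier results of these data known. Named genes were the 15 highest and 15 lowest changes with at least 5 FPKM at either time, up to 4 members of each list with at least 3 shared members, a fixed set of 20 genes (15 of them shared), up to 8 genes changed oppositely in S51A, up to 6 per direction changed at both times, and up to 4 listed at 0 at one time. Gene positions and exons are those of GENCODE M21.
A gene among the 15 lowest is not described here.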

Additional observations from a re-analysis of the deposited data

How the results depend on the processing

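No paired analysis was possible because the tables hold 1 value per group, and for the same reason no replicate could be left out. With 0.1 FPKM added in place of 1, 196 genes were at least 2-fold changed (77 higher, 119 lower), with 31 higher and 54 lower in both lines and 19 changed at 15 min. With 5 FPKM added there were 38 (11 higher, 27 lower), with 5 higher and 9 lower in both lines and 1 at 15 min. A 1.5-fold threshold gave 328 (88 higher, 240 lower), 49 higher and 121 lower in both lines and 21 at 15 min, and a 4-fold one 7 (4 higher, 3 lower), 2 and 0 in both lines and 0 at 15 min. Centring on 7 housekeeping genes gave 20 higher and 85 lower, with 6 higher and 54 lower in both lines and 1 at 15 min. With at least 5 FPKM at either time there were 18 higher and 63 lower, and 1 at 15 min. Without centring there were 19 higher and 89 lower, and with the 15 min base, chosen after seeing the data, 22 and 80. Of the 43 named genes past 2-fold (18 higher, 25 lower), 14 and 25 remained past it without centring, 11 and 19 with 5 FPKM added, and 13 of 18 and 22 of 24 with the 15 min base. No named gene past 2-fold had the opposite sign under any setting tried. These genes were chosen for large changes, and the settings could hardly reverse them, so this says little. The median of each of 33 lists moved by less than 1.5-fold, but that bound is wider than any of these medians and could not show instability. The MAPK feedback median was -0.42 with 1 FPKM added and -0.20 with 5 FPKM. Fold thresholds cannot alter a median. Medians near 0 had the other sign in 12 lists without centring, 8 with housekeeping centring, 8 with the 15 min base and 4 with at least 5 FPKM. Depth is unknown, so the precision of low values is too.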

Other observations

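Genes listed at 15 and 120 min but not at 0 min lie outside the shared set. For these 1136 genes the 15 min WT value was taken as the base, a choice made after seeing the data. At 120 min 8 of them were at least 2-fold higher (0.704%) and 10 at least 2-fold lower (0.88%). Slc3a2, the heavy chain that pairs with the Slc7a11 cystine carrier and a member of the integrated stress response list, was at 67.2 FPKM at 15 min and 146 FPKM at 120 min in WT, a centred log2 change of 1.24, and at 84.4 FPKM and 77.7 FPKM in S51A, a change of 0.12. Rmrp, the RNA of the ribonuclease MRP complex, had the highest change, at 8.06 FPKM and 48.8 FPKM in WT (2.60) and 35.0 FPKM and 89.3 FPKM in S51A (1.56). Sfn, for the 14-3-3 sigma protein, was at 0.688 FPKM and 4.66 FPKM in WT. Rnf145, a ubiquitin ligase of sterol control, had the lowest, at 47.8 FPKM and 12.6 FPKM in WT (-1.71) and 41.6 FPKM and 8.88 FPKM in S51A (-1.87). The difference between the lines was not tested, and these genes are named after their values were seen.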
